A study of Mus musculus with 12 samples.

Results

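The transcripts described here encode the subunits of hypoxia-inducible factor (HIF) and the proteins that sense oxygen for it: Hif1a, Epas1, Arnt, Egln1, Egln2, Egln3, Vhl and Hif1an. They were chosen by gene name under a rule that uses no measured value, though with earlier results of these data known, and each of the 8 stands on a single row of the 27487 genes listed. The libraries were made from polyadenylated RNA of BV2 cells, an immortalised mouse microglial line. Each of the 3 groups held 4 libraries: BV2 cells alone (CTR), BV2 cells cultured with primary mouse neutrophils (Neu), and BV2 cells cultured with neutrophils that had received phorbol 12-myristate 13-acetate (PMA), a protein kinase C activator that drives release of neutrophil extracellular traps, or NETs (Neu+NETS). The design sets microglia-like cells with neutrophils, resting or PMA-stimulated, against the same cells alone. No group received PMA without neutrophils, so an effect of PMA on BV2 cells and one of NETs cannot be told apart. The labels name retina as the tissue although the cells are a line; the sources used here do not give the strain of the neutrophil donors, the length of co-culture, the oxygen tension, or any step that took neutrophils out ahead of lysis.

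HIF is a pair of basic helix-loop-helix PAS proteins. An alpha subunit, the product of Hif1a or Epas1, binds the constitutive partner encoded by Arnt. When oxygen is present, the prolyl hydroxylases encoded by Egln1, Egln2 and Egln3 mark the alpha subunit, the product of Vhl recognises the mark, and the alpha subunit is ubiquitinated and degraded. The asparaginyl hydroxylase encoded by Hif1an adds a further mark that keeps the alpha subunit from its coactivators. In macrophages HIF is known for its control of glycolysis and inflammatory genes, and Egln1 and Egln3 are themselves known HIF target genes in mammalian cells. The control of HIF by oxygen acts on protein, which RNA sequencing does not measure.

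Libraries held 53512190 to 68316549 estimated counts, and 16387 genes passed the filter on low counts, all 8 members among them. The lowest value of any member was 486 estimated counts, which would be about 121 fragments if a fragment stood for 4 counts, as the spacing of low values may hint. Microglia and macrophage markers summed to 1120 to 1180 FPKM (fragment counts divided by library size and transcript length) in CTR. Their sums were 1130 to 1170 FPKM in Neu and 695 to 709 in Neu+NETS. Among homeostatic markers, P2ry12 stayed under 1 FPKM in every group mean. Tmem119 read 3.67, 2.06 and 1.01 FPKM in CTR, Neu and Neu+NETS, and Cx3cr1 read 0.718, 5.48 and 0.032. Against CTR, Tmem119 was called lower and Cx3cr1 higher in Neu, and both were called lower in Neu+NETS. Of 15 mature neutrophil markers sought, 9 are listed in the table, and S100a9, Ly6g and Retnlg are not. They summed to 6.77 to 8.35 FPKM in CTR, 8.50 to 9.28 in Neu and 1.24 to 2.29 in Neu+NETS. Much of this was Csf3r, at 5.15, 4.15 and 0.691 FPKM. Mmp9 (0.548 to 1.46 FPKM) and Lcn2 (0.223 to 0.950) were higher in Neu than in CTR by the test given below. Ngp, Camp and S100a8 were not tested, and none of the remaining mature markers passed the test there. S100a8 stood at 0.257, 0.189 and 0.0547 FPKM, and Ngp was at 0 in every CTR and Neu+NETS library. The 5 precursor markers summed to 15.6 to 18.2, 19.5 to 23.1 and 7.16 to 9.29 FPKM, nearly all of it Cebpe, while Mpo and Elane stayed under 0.1 FPKM as group means. Cebpe (16.4 to 20.5 FPKM) and Prtn3 (0.0645 to 0.399) also passed as higher in Neu than in CTR. The 5 retinal markers summed to at most 3.06 FPKM and the 4 endothelial and fibroblast markers to at most 0.104 FPKM. In RNA of a whole culture, fewer cells of a type and less RNA per cell cannot be told apart. The labels do not say whether replicates were grown separately, and the tests below therefore refer to library-to-library spread, which could be purely technical.

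In BV2 cells cultured with neutrophils, the transcripts of the oxygen-sensing arm moved and those of the HIF alpha subunits did not pass the test. Egln1 rose 4.23-fold, Egln3 3.35-fold and Vhl 2.45-fold over CTR, and Arnt rose 1.25-fold, while Egln2 fell 1.40-fold and Hif1an fell 1.23-fold. In all, 4 members were called higher and 2 lower by edgeR's quasi-likelihood test at a Benjamini-Hochberg adjusted p under 0.05. Among all genes tested, 54.1% were called in this comparison, 26.1% higher and 27.9% lower. FPKM ranges were separate for 6 members and for 51.6% of all genes tested. The median log2 fold change of the 8 members was 0.18, against 0.02 over all genes tested.

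With PMA-stimulated neutrophils, Egln1, Egln3 and Vhl rose by less than in Neu, Hif1an and Arnt moved the other way, and both alpha subunits passed the test. Egln3 rose 2.03-fold over CTR, Vhl 1.36-fold, Egln1 1.20-fold, Hif1a 1.18-fold and Hif1an 1.17-fold, whereas Epas1 fell 2.05-fold, Egln2 1.37-fold and Arnt 1.11-fold. All 8 members were thus called, 5 higher and 3 lower, where 45.3% of all genes tested were called, 21.6% higher and 23.7% lower. Ranges did not overlap for 7 members and for 42.2% of all genes tested. The member median was 0.23 on the log2 scale, against 0.00 over all genes tested.

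Set directly against Neu, the Neu+NETS libraries held fewer transcripts of Egln1 (3.52-fold), Epas1 (1.95-fold), Vhl (1.80-fold), Egln3 (1.66-fold) and Arnt (1.38-fold), and more of Hif1an (1.43-fold) and Hif1a (1.15-fold). These 7 were called, 2 higher and 5 lower, where 62.5% of all genes tested were called, 29.4% higher and 33.1% lower, and the member median was -0.60 against -0.05. Ranges did not overlap for 7 members and for 59.6% of all genes tested. With limma on log2(FPKM + 1), 38.7%, 58.5% and 59.9% of the calls over all genes were higher in the 3 comparisons in the order given, instead of 48.3%, 47.6% and 47.1% with edgeR. The 3 comparisons share libraries pairwise, so they are given side by side and not as independent evidence. Microglia and macrophage markers were also lower in Neu+NETS, and their part in these differences was not tested.

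**Figure D1:**
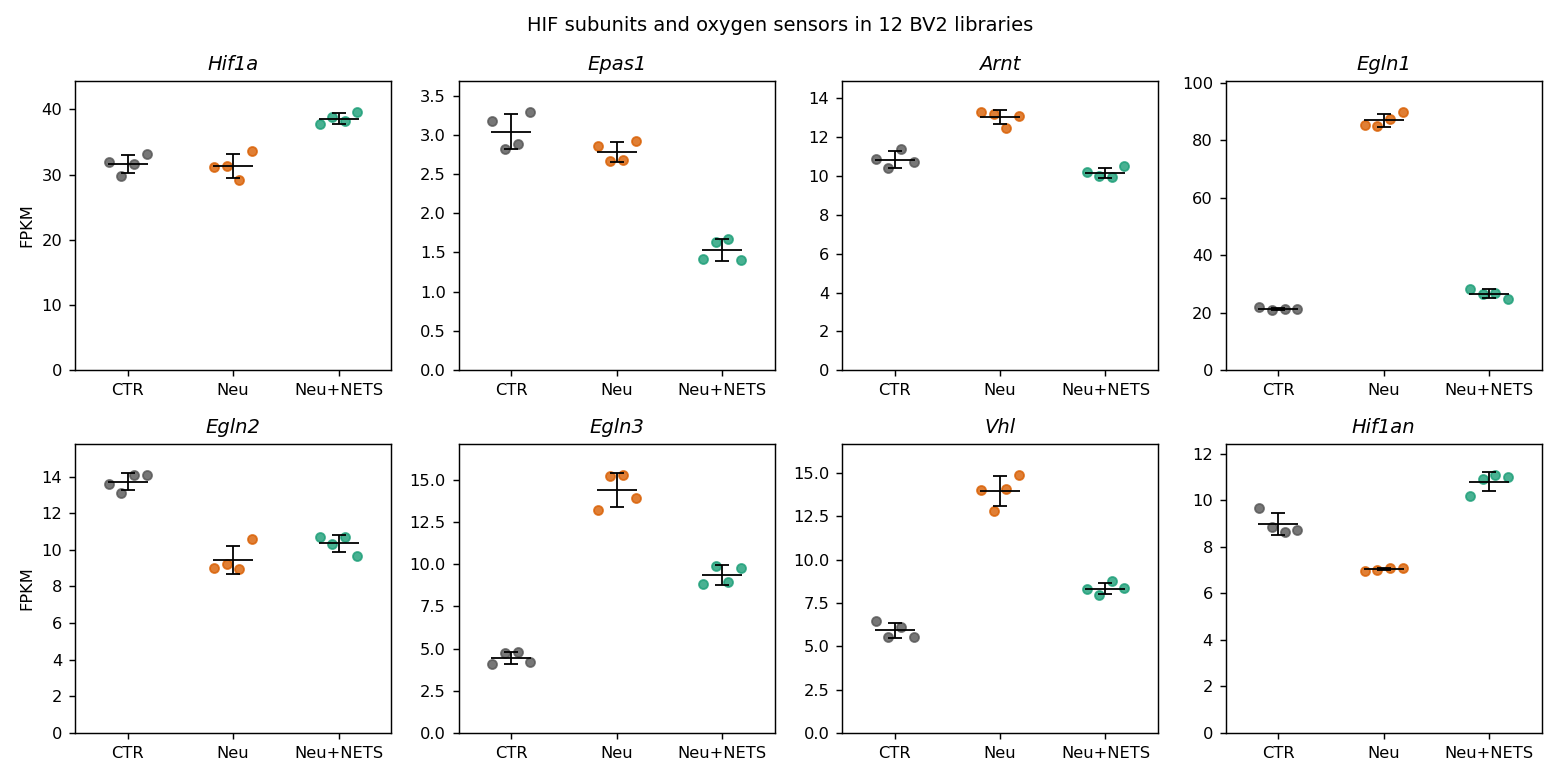
FPKM (vertical axis, from 0, with a scale of its own in each panel) of the 8 members in the 4 libraries of each group; points are libraries, and the bar and whiskers are the mean and SD. Egln1 stands at 85.2 to 89.9 FPKM in Neu and at 28.4 or below in every other library, and Epas1 stands at 1.40 to 1.67 in Neu+NETS and at 2.67 or above in every other library.

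**Figure D2:**
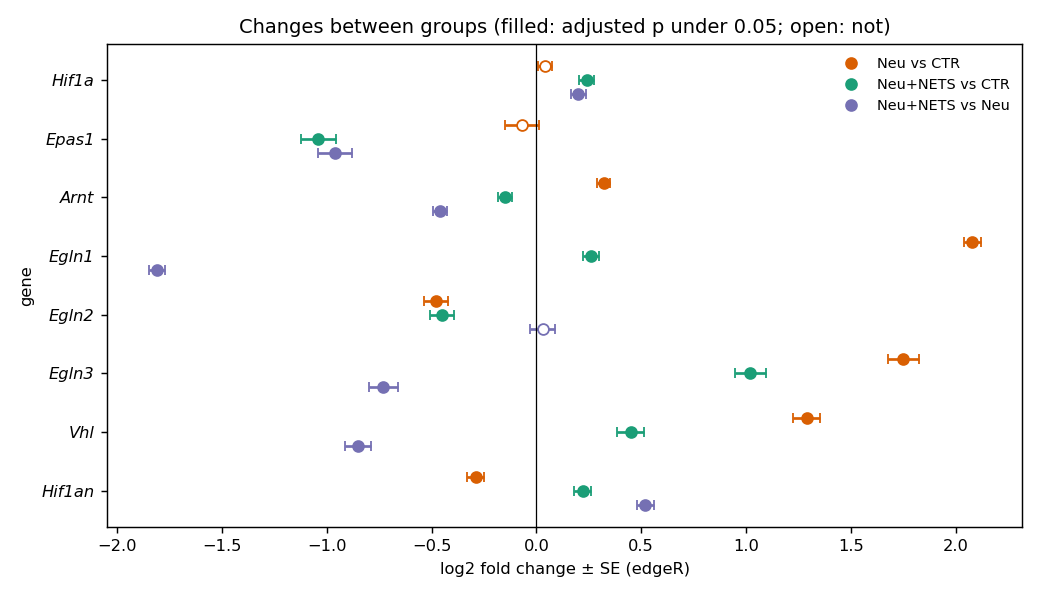
Log2 fold change (horizontal axis) with its SE from edgeR for each member in the 3 comparisons; filled points have an adjusted p under 0.05 and open points do not. Egln1, Egln3 and Vhl lie to the right in both comparisons with CTR and to the left in Neu+NETS against Neu, while Arnt and Hif1an change sides between the 2 comparisons with CTR.

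Because FPKM is scaled to transcript length, levels can be ordered between genes. In CTR the order was Hif1a, Egln1, Egln2, Arnt, Hif1an, Vhl, Egln3 and Epas1, from 31.6 down to 3.04 FPKM, and no neighbours in that order overlapped in range. In Neu it began with Egln1 at 87.0 FPKM, followed by Hif1a at 31.3; Egln3, Vhl and Arnt came next at 14.4, 13.9 and 13.0, and the ranges of Egln3 and Vhl and those of Vhl and Arnt overlapped. Egln2 at 9.45, Hif1an at 7.03 and Epas1 at 2.78 FPKM closed the order. In Neu+NETS Hif1a led again at 38.6 FPKM, before Egln1 at 26.6; Hif1an, Egln2 and Arnt followed at 10.8, 10.4 and 10.1 with neighbouring ranges that overlapped, and Egln3 at 9.36, Vhl at 8.33 and Epas1 at 1.53 came last. Hif1a thus lay near the 90.1 percentile of all genes tested in CTR, 90.8 in Neu and 91.9 in Neu+NETS, while Egln1 went from the 84.7 to the 97.3 and 87.8 percentile.

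Hif1a, the alpha subunit found in most cell types, lies on chromosome 12 from 73948149 to 73994304 on the plus strand (ENSMUSG00000021109; coordinates in this and the following paragraphs are those of the deposited table, build GRCm39 unless stated). It read 32.0, 29.8, 31.6 and 33.1 FPKM in the CTR libraries, 31.2, 31.3, 29.1 and 33.6 in Neu, and 37.7, 38.8, 38.2 and 39.6 in Neu+NETS. The CTR and Neu ranges overlapped, and every Neu+NETS library stood above every other library. Its log2 fold change was 0.24 ± 0.035 for Neu+NETS against CTR (SE, n = 4 libraries per group; edgeR adjusted p = 3.0e-05) and 0.20 ± 0.035 against Neu (adjusted p = 1.1e-04). In Neu against CTR it was 0.04 ± 0.035 (adjusted p = 0.362); the sign turned with limma on FPKM (-0.016), and with upper-quartile scaling the value passed the test at 0.085 (adjusted p = 0.045). The gene Gm15283 overlaps Hif1a on the other strand; it was listed at no more than 0.108 FPKM in any library, and whether the counting used strand is unknown from the sources used here.

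Epas1, the gene of the second alpha subunit HIF-2 alpha, lies on chromosome 17 from 87061128 to 87140838 on the plus strand (ENSMUSG00000024140). Its levels were 3.17, 2.82, 2.88 and 3.29 FPKM in CTR, 2.86, 2.67, 2.68 and 2.92 in Neu, and 1.422, 1.634, 1.669 and 1.403 in Neu+NETS. CTR and Neu overlapped, and the Neu+NETS libraries lay below all the others. The log2 fold change of Neu+NETS was -1.04 ± 0.082 against CTR (edgeR adjusted p = 2.1e-08) and -0.96 ± 0.082 against Neu (adjusted p = 1.7e-08), and 1243 of the 16387 genes tested had a lower log2 fold change against CTR. For Neu against CTR it was -0.07 ± 0.081 (adjusted p = 0.486). By FPKM, Hif1a made up 91.2% ± 0.335 of the alpha-subunit transcripts in CTR (SD, n = 4), 91.8% ± 0.291 in Neu and 96.2% ± 0.354 in Neu+NETS.

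Arnt, which encodes the beta subunit shared with the dioxin receptor, lies on chromosome 3 from 95341699 to 95404548 on the plus strand (ENSMUSG00000015522). It read 10.9, 10.4, 11.4 and 10.7 FPKM in CTR, 13.3, 13.2, 12.5 and 13.1 in Neu, and 10.2, 9.99, 9.95 and 10.5 in Neu+NETS. The Neu libraries stood above all the others, while the highest Neu+NETS library stood within the CTR range. The transcript rose in Neu by 0.32 ± 0.033 on the log2 scale (edgeR adjusted p = 3.2e-07) and fell by 0.15 in Neu+NETS (SE 0.033, adjusted p = 0.00149), each against CTR, and the direct difference of Neu+NETS from Neu was -0.46 ± 0.033 (adjusted p = 1.6e-09). A predicted gene, Gm42672, overlaps Arnt on the same strand and reached at most 1.15 FPKM.

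Since Egln1, Egln3 and Vhl rose together and Egln2 fell, the sequence before the start of these 4 genes is shown. Each is the 250 bases upstream of the start that RefSeq gives on build GRCm38.p6, an older build than that of the table, read 5′ to 3′ on the strand of the gene. The windows are chr8:124949255-124949504, minus strand, for Egln1; chr12:54203875-54204124, minus strand, for Egln3; chr6:113623744-113623993, plus strand, for Vhl; and chr7:27166803-27167052, minus strand, for the more upstream of the 2 starts of Egln2. Capitals mark ACGTG on either strand (CACGT when read on the strand shown), the more common core of the sequence that HIF dimers bind.
Egln1: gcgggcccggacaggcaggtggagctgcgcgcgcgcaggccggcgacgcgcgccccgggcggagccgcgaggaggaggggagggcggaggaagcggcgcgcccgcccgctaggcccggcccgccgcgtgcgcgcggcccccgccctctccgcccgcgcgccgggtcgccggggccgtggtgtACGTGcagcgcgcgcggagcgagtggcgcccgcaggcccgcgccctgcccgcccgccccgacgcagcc
Egln3: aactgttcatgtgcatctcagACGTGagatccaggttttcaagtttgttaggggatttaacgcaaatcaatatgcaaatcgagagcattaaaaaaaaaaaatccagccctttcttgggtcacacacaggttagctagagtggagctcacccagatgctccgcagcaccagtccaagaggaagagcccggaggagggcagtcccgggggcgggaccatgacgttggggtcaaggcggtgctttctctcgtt
Vhl: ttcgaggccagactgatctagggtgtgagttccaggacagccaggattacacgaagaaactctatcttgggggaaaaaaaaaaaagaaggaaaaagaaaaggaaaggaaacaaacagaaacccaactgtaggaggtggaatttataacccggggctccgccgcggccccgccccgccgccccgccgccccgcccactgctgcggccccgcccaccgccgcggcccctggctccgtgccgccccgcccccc
Egln2: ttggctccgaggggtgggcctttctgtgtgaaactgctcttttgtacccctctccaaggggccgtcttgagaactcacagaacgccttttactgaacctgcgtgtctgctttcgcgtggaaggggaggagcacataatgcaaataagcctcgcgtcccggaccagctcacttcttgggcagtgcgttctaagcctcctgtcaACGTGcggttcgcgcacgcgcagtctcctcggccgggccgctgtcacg
ACGTG begins 68 bases before the start of Egln1, 229 before that of Egln3 and 48 before that of Egln2, and these letters are not in the window of Vhl. Of all 32851 promoter windows of this length, 16.6% hold ACGTG on either strand. Of the 7 members with a window (the table used here holds none for Epas1), 4 had ACGTG: these 3 and Hif1a, where one match reads CACGTG and so counts on both strands. The other core, GCGTG, stands on either strand in 28.2% of all windows and in those of Egln1, Egln2 and Arnt. A match describes letters only, and its bearing on the changes was not tested. The window before the second start of Egln2 (chr7:27165729-27165978, minus strand) held no ACGTG.

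Egln1 encodes PHD2, the hydroxylase that mainly sets HIF-1 alpha levels when oxygen is plentiful. The gene lies on chromosome 8 from 125635326 to 125676063 on the minus strand (ENSMUSG00000031987). The CTR libraries held 21.9, 21.1, 21.4 and 21.2 FPKM, the Neu libraries 85.4, 85.2, 87.5 and 89.9, and the Neu+NETS libraries 28.4, 26.4, 26.9 and 24.7. No ranges overlapped, with Neu far above both other groups and Neu+NETS a little above CTR. The log2 fold change was 2.08 ± 0.040 in Neu against CTR (edgeR adjusted p = 2.1e-16), 0.26 ± 0.039 in Neu+NETS against CTR (adjusted p = 2.7e-05) and -1.81 ± 0.039 in Neu+NETS against Neu (adjusted p = 3.6e-16). Only 377 of the 16387 genes tested had a larger log2 fold change in Neu against CTR.

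Egln3 encodes PHD3, a hydroxylase known for strong induction by low oxygen and for a role in neutrophil survival in mice. It lies on chromosome 12 from 54225767 to 54250646 on the minus strand (ENSMUSG00000035105). Its levels were 4.11, 4.72, 4.82 and 4.20 FPKM in CTR, 13.2, 15.2, 15.3 and 13.9 in Neu, and 8.81, 9.92, 8.94 and 9.76 in Neu+NETS, so that the 3 groups were separate, with Neu+NETS between the other 2. The log2 fold changes were 1.75 ± 0.074 for Neu (edgeR adjusted p = 3.5e-12) and 1.02 ± 0.074 for Neu+NETS (adjusted p = 6.2e-09) against CTR, and -0.73 ± 0.071 between the co-cultures (adjusted p = 9.7e-08). Ranked by log2 fold change against CTR, 557 genes stood above it in Neu and 562 in Neu+NETS.

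Egln2 encodes PHD1, a mostly nuclear member of the same family. The gene lies on chromosome 7 from 26858083 to 26866227 on the minus strand (ENSMUSG00000058709). It read 13.6, 13.1, 14.1 and 14.1 FPKM in CTR, 8.99, 9.23, 8.97 and 10.6 in Neu, and 10.7, 10.3, 10.7 and 9.68 in Neu+NETS. Both co-culture groups stood below every CTR library and overlapped each other. Against CTR the log2 fold change was -0.48 ± 0.058 in Neu (edgeR adjusted p = 1.9e-06) and -0.45 ± 0.058 in Neu+NETS (adjusted p = 6.2e-06). Between the co-cultures it was 0.03 ± 0.059 (adjusted p = 0.707), with a sign that turned under upper-quartile scaling (-0.017) and a value that passed with limma on log2(FPKM + 1), at 0.121 (adjusted p = 0.045). Cyp2t4, which overlaps Egln2 on the other strand, was listed at no more than 0.105 FPKM.

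The makeup of the hydroxylase transcripts followed from these values. The summed FPKM of Egln1, Egln2 and Egln3 was 39.6 ± 0.553 in CTR (SD, n = 4), 111 ± 2.93 in Neu and 46.3 ± 1.59 in Neu+NETS. Egln1 held 54.1% ± 0.932 of it in CTR, 78.5% ± 0.696 in Neu and 57.4% ± 1.47 in Neu+NETS. The share of Egln2 went from 34.7% ± 0.831 to 8.52% ± 0.533 and 22.4% ± 0.474, and that of Egln3 from 11.3% ± 0.899 to 13.0% ± 0.919 and 20.3% ± 1.75. Relative to the summed FPKM of Hif1a and Epas1, the hydroxylase sum was 1.14 ± 0.0481 in CTR, 3.26 ± 0.177 in Neu and 1.15 ± 0.0611 in Neu+NETS. The mean ratio in Neu+NETS thus lay within the CTR range of 1.08 to 1.19, while its libraries spanned 1.08 to 1.22. Its numerator held a larger share of Egln3 and a smaller share of Egln2 than in CTR. These sums and shares are descriptions, with no test.

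**Figure D3:**
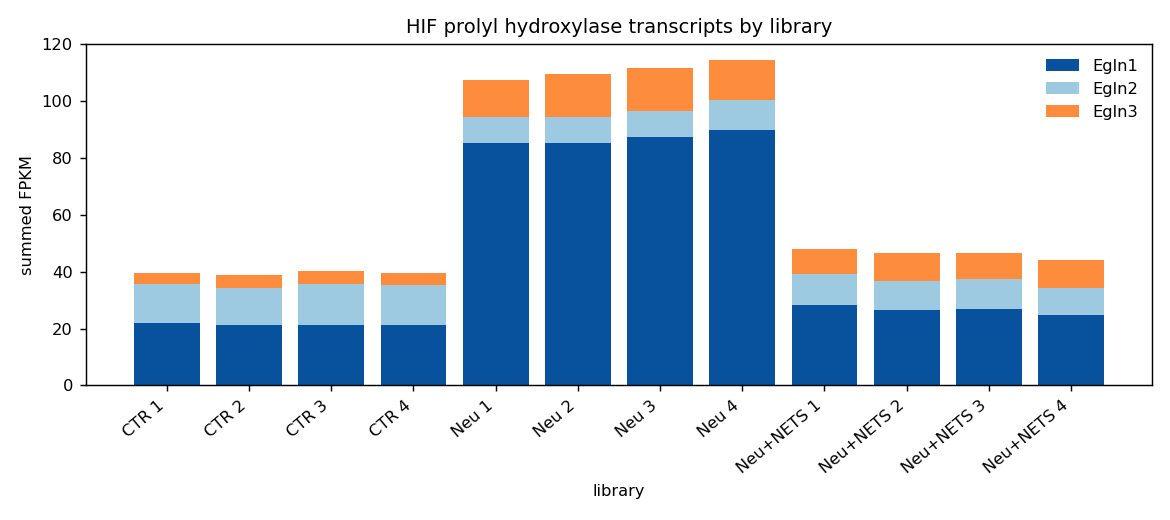
Stacked FPKM of Egln1, Egln2 and Egln3 in each of the 12 libraries (vertical axis from 0). The Neu libraries sum to 108 to 114 FPKM, the CTR libraries to 38.9 to 40.3 and the Neu+NETS libraries to 44.1 to 47.9.

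Vhl encodes the von Hippel-Lindau protein, which recognises the hydroxylated alpha subunit within a ubiquitin ligase. It lies on chromosome 6 from 113600920 to 113608594 on the plus strand (ENSMUSG00000033933). The levels were 6.43, 5.51, 6.14 and 5.56 FPKM in CTR, 14.0, 12.8, 14.1 and 14.9 in Neu, and 8.28, 7.95, 8.76 and 8.34 in Neu+NETS. All 3 groups were separate, in the same order as for Egln1 and Egln3. Vhl rose by 1.29 ± 0.064 on the log2 scale in Neu (edgeR adjusted p = 2.5e-11) and by 0.45 ± 0.064 in Neu+NETS (adjusted p = 2.0e-05) against CTR, and the co-cultures differed by -0.85 ± 0.063 (adjusted p = 2.9e-09, Neu+NETS minus Neu).

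Hif1an encodes the asparaginyl hydroxylase known as factor inhibiting HIF. The gene lies on chromosome 19 from 44551289 to 44564713 on the plus strand (ENSMUSG00000036450). It read 9.66, 8.84, 8.63 and 8.73 FPKM in CTR, 6.97, 7.02, 7.08 and 7.08 in Neu, and 10.2, 10.9, 11.1 and 11.0 in Neu+NETS. The Neu libraries lay below CTR and the Neu+NETS libraries above it, with no overlap. The log2 fold change against CTR was -0.29 ± 0.042 in Neu (edgeR adjusted p = 1.2e-05) and 0.22 ± 0.041 in Neu+NETS (adjusted p = 2.8e-04), and 0.52 ± 0.041 between the co-cultures (adjusted p = 7.9e-09). Hif1an thus moved opposite to Egln1, Egln3 and Vhl in Neu and with them in Neu+NETS.

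**Figure D4:**
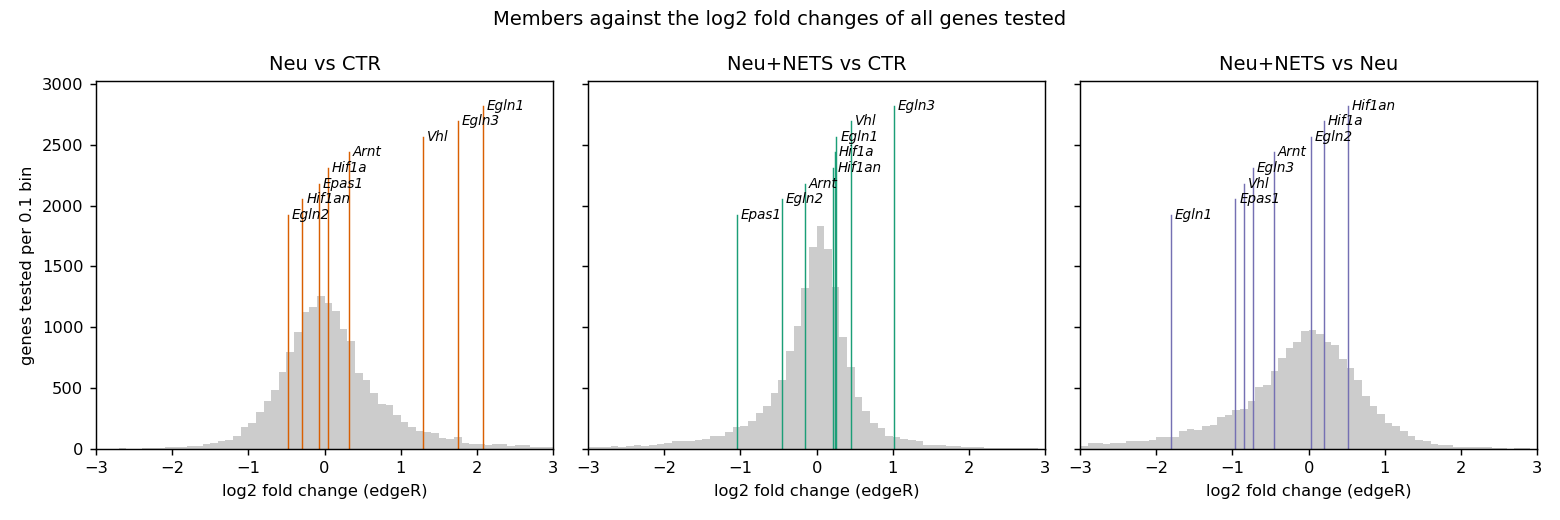
Histogram of the edgeR log2 fold changes of all 16387 genes tested (grey; genes per bin of 0.1, values beyond 3 in either direction not shown) with the 8 members as lines, in each comparison; line heights only separate the labels. In Neu against CTR, Egln1 and Egln3 stand above 97.7% and 96.6% of genes, while Hif1a at 51.5% is near the middle.

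Related genes were counted by list, beginning with the partners of Vhl in its ubiquitin ligase. Of 5 tested (Elob, Eloc, Cul2, Rbx1 and the ubiquitin-like Nedd8 that activates cullins), 3 were lower and 0 higher in Neu than in CTR (median log2 fold change -0.12), and 2 were higher and 0 lower in Neu+NETS (median 0.06); over all genes tested 54.1% and 45.3% were called. Cul2, the cullin scaffold, read 13.3 FPKM in CTR, 11.4 in Neu and 15.9 in Neu+NETS (log2 fold changes -0.17 ± 0.046 and 0.21 ± 0.046, edgeR adjusted p = 0.00491 and 0.00147). In Neu against CTR the count called fell from 3 to 1 without CTR replicate 2.

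Genes whose products act on HIF or EGLN proteins were split. Of 19 tested, 8 rose and 7 fell in Neu, and 8 rose and 2 fell in Neu+NETS, each against CTR. That is 78.9% and 52.6% called, where 54.1% and 45.3% of all genes tested were called. Siah1b and Siah2 encode ubiquitin ligases of the Siah family, known for degrading EGLN3 protein. Siah1b fell 1.93-fold in Neu, from 5.59 to 2.78 FPKM (edgeR adjusted p = 7.5e-08), and rose 1.45-fold to 8.38 FPKM in Neu+NETS (adjusted p = 6.8e-05); reads may be split with its close relative Siah1a. Siah2 rose 1.44-fold to 5.70 FPKM in Neu+NETS and read 3.83 and 3.76 FPKM in CTR and Neu (adjusted p = 0.821). Ptges3, the HSP90 cochaperone p23, went from 53.6 FPKM in CTR to 31.3 in Neu and 65.8 in Neu+NETS, and Senp1, a SUMO protease that stabilises HIF-1 alpha in mice, from 5.75 to 3.28 and 6.58, all called. Usp20, a deubiquitinase of HIF-1 alpha, rose by 0.69 and 0.51 on the log2 scale in Neu and Neu+NETS.

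Among coactivators and CITED competitors, all 8 tested were called in Neu against CTR, 4 higher and 4 lower, and 5 in Neu+NETS, 1 higher and 4 lower. The shares of all genes tested that were called were 54.1% and 45.3%. The count in Neu fell to 5 with limma on filtered log2(FPKM + 1), where Cited1 was not tested. The smaller changes of Ncoa1 (log2 fold change 0.16) and Kat5 (-0.19) lost their call in 13 and 10 of 22 alternatives. Cited2, which competes with HIF-1 alpha for the coactivators Ep300 and Crebbp and is itself a HIF target, rose 2.37-fold in Neu, from 23.5 to 53.6 FPKM (edgeR adjusted p = 1.9e-12), and read 22.2 FPKM in Neu+NETS (adjusted p = 0.0501). Cdk8, a mediator kinase, fell 1.21-fold in Neu and rose 1.24-fold in Neu+NETS. Ep300 and Crebbp moved by no more than 0.20 on the log2 scale in either comparison with CTR.

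Related bHLH-PAS factors that the deposited table lists were scarce. Ahr, the gene of the dioxin receptor, Npas3 and Sim1 are not listed under these names, so their levels are not known here. Of 8 tested, the clock partners Bmal1 and Clock alone exceeded 1 FPKM in a group mean; Bmal1 read 1.15, 2.37 and 1.66 FPKM and Clock 1.99, 1.56 and 2.85 in CTR, Neu and Neu+NETS, all called against CTR. In Neu 2 of the 8 were higher and 1 lower, in Neu+NETS 3 higher and 2 lower, and the Neu count called rose from 3 to 5 without CTR replicate 2, 3 or 4. Over all genes tested, 54.1% were called in Neu and 45.3% in Neu+NETS. Arnt2, the neural relative of Arnt, stayed at 0.103 FPKM or below in group means, and Hif3a, the third alpha subunit, at 0.0302 or below.

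Oxygen is also a substrate of other dioxygenases. Of 20 tested hydroxylases and demethylases, 16 rose and 3 fell in Neu (median log2 fold change 0.72, against 0.02 over all genes tested) and 11 rose and 3 fell in Neu+NETS (median 0.13, against 0.00). Over all genes tested, 26.1% were higher and 27.9% lower in Neu, and 21.6% and 23.7% in Neu+NETS. Plod2, a collagen lysyl hydroxylase, rose 5.27-fold in Neu, from 11.5 to 58.2 FPKM, and 1.68-fold in Neu+NETS. P4ha2, a collagen prolyl hydroxylase, rose 5.03-fold and 1.60-fold, and the histone demethylase genes Kdm6b and Kdm4b rose 4.06-fold and 2.65-fold in Neu. Asph, an aspartyl hydroxylase of the endoplasmic reticulum, rose in both, 1.84-fold and 1.82-fold, and the direct difference did not pass (log2 fold change -0.02 ± 0.033, edgeR adjusted p = 0.7). Ado, a thiol dioxygenase that senses oxygen outside the HIF pathway, fell 1.27-fold in Neu and rose 1.16-fold in Neu+NETS. The markers of macrophages and neutrophils given above moved between the same groups, and their part here was not tested.

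EGLN enzymes consume 2-oxoglutarate and are inhibited by succinate and fumarate. Of 17 tested genes that make or remove these metabolites, 0 rose and 13 fell in Neu (median -0.26), and 2 rose and 11 fell in Neu+NETS (median -0.25). Among all genes tested, 26.1% rose and 27.9% fell in Neu, and 21.6% and 23.7% in Neu+NETS. Idh3a, a catalytic subunit of mitochondrial isocitrate dehydrogenase, fell 1.79-fold in Neu, from 40.6 to 21.8 FPKM (edgeR adjusted p = 4.5e-13), and read 42.4 FPKM in Neu+NETS (adjusted p = 0.745). Idh1, the cytosolic enzyme, read 26.0 and 25.7 FPKM in CTR and Neu (adjusted p = 0.494) and fell 2.43-fold to 11.0 in Neu+NETS (adjusted p = 1.2e-12). Sdhb, a succinate dehydrogenase subunit, fell 1.40-fold in Neu and 1.27-fold in Neu+NETS.

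Of 21 other HIF target genes, 19 rose and 0 fell in Neu (median 1.32), and 13 rose and 5 fell in Neu+NETS (median 0.22). All 21 were lower in Neu+NETS than in Neu (median -1.42). Of all genes tested, 33.1% were called lower in that comparison, and their median was -0.05 over all genes tested. Ankrd37 rose 9.07-fold in Neu, to 23.4 FPKM, and the mitophagy receptor gene Bnip3 7.03-fold, to 313 FPKM. P4ha1, P4ha2 and Kdm3a stand on this list and on the dioxygenase list. Of 84 tested genes that the deposited table places in the KEGG HIF-1 signaling pathway, the 8 members left out, 47 rose and 21 fell in Neu, and 21 rose and 35 fell in Neu+NETS. Beside the targets and the KEGG genes, 26.1% of all genes tested rose and 27.9% fell in Neu. In Neu+NETS these shares were 21.6% and 23.7%. Between the co-cultures, where 62.5% of all genes tested were called, the counts higher and lower in Neu+NETS were 4 and 0 for the Vhl partners, 9 and 9 for the regulators, 2 and 5 for the coactivators and competitors, 1 and 3 for the bHLH-PAS factors, 4 and 15 for the dioxygenases, 8 and 5 for the metabolite enzymes, and 16 and 53 for the KEGG pathway.

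**Figure D5:**
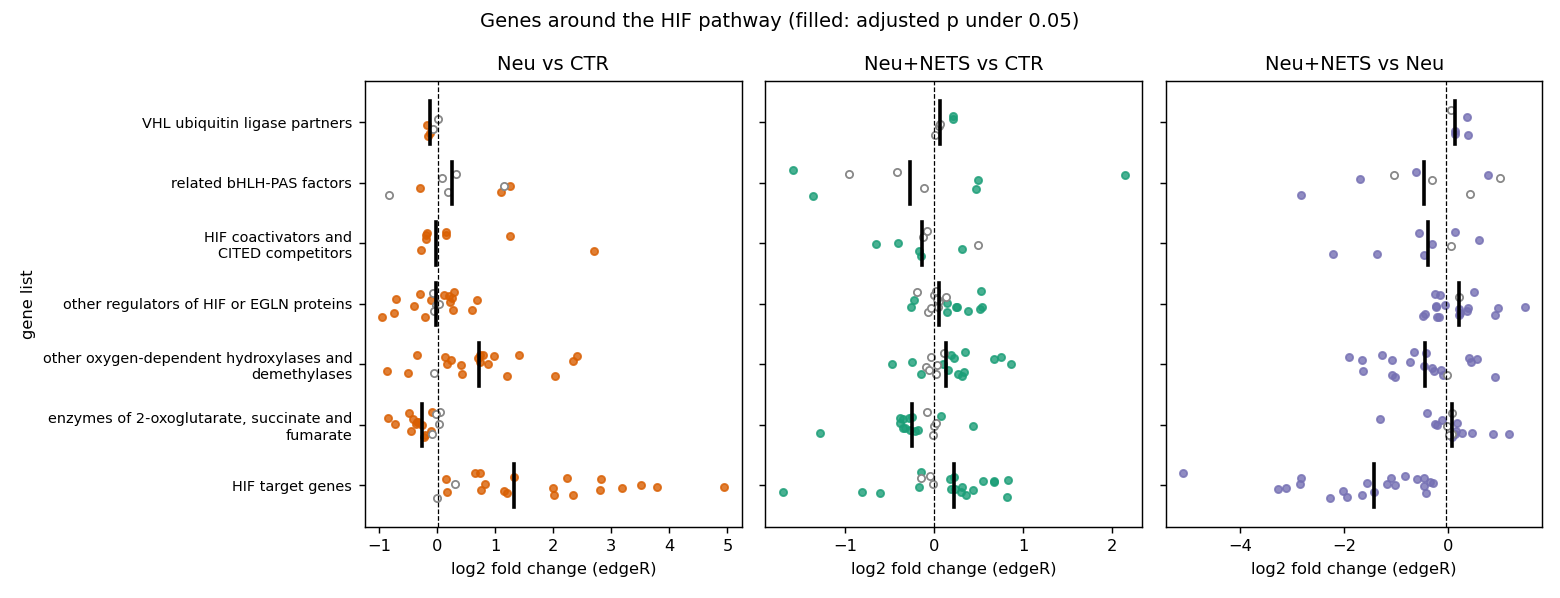
Log2 fold changes (edgeR) of the genes of 7 lists around the HIF pathway in the 3 comparisons; filled points have an adjusted p under 0.05, thick bars are list medians and the dashed line is the median of all genes tested. The list medians in Neu against CTR are 1.32 for HIF targets and 0.72 for other oxygen-dependent enzymes, and -0.26 for the enzymes of 2-oxoglutarate, succinate and fumarate.

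Likeness to a member was measured as the root mean square difference between log2 CPM profiles, each centred on its own mean over the 12 libraries. It was sought for the 5 members whose group means spanned at least 0.5, among 6940 named genes with a mean of at least 5 FPKM, and is a description. Nearest to Egln1 were Gbe1, a glycogen branching enzyme (difference 0.0892), Smox, spermine oxidase (0.0943), Lims2 (0.101), Unc5b (0.108) and the demethylase gene Kdm6b (0.109). Gbe1 read 4.46, 18.1 and 5.73 FPKM in CTR, Neu and Neu+NETS, and Smox 13.3, 51.4 and 14.3. Those nearest to Vhl were the nuclear receptor gene Ppard (0.0882), the kinase gene Plk2 (0.0942), Dhrs7 (0.0993), Dipk2a (0.109) and the chloride transporter gene Clcn3 (0.110). Egln3 had looser matches, at 0.160 for Ciart, a clock-related repressor, 0.168 for Sertad1, 0.186 for the stress gene Sesn2, 0.190 for Rcor2 and 0.198 for Ppme1. Closest to Epas1 were Abi3, an actin regulator of microglia (0.0882), Wdr91 (0.0958), Cutc (0.101), the lysosomal protease gene Lgmn (0.104) and Mov10 (0.106); Abi3 read 8.20, 7.55 and 3.83 FPKM. For Hif1an they were Rpf2 (0.0388), Zc3hc1 and Selenof (both 0.0409), B3galnt2 (0.0414) and Uri1 (0.0451), and Rpf2, a ribosome assembly factor, read 21.0, 15.8 and 24.7 FPKM.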

How the data were processed

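Libraries of oligo-dT selected RNA from BV2 cells were grouped by the labels into CTR, Neu and Neu+NETS, with 4 each. The table used holds, per the file headers, an estimated count and an FPKM column per library, both deposited by the authors; 0 columns were unmatched. Tools listed in the submitters' processing notes, without roles, are HISAT2 2.0.4, edgeR and StringTie 1.3.4d, and the build is GRCm39; the sources used here give neither annotation release nor strand setting. The authors deposited unscaled estimated counts, whole numbers used as such; 33.0% of values from 2 to 41 are multiples of 4, where even spacing gives 25%, so totals may overstate fragments, which was not tested. The deposited FPKM values are the authors' own and serve here as levels and in limma.

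Genes were kept by filterByExpr (16387), scaled by TMM (factors 0.970 to 1.03) and fitted together in edgeR 4.0.16 (R 4.3.3; glmQLFit, glmQLFTest, a mean per group, common biological coefficient of variation 12.5%). Tests were two-sided, adjusted by Benjamini-Hochberg over all genes tested and called under 0.05. SE is the log2 fold change over the square root of F. Alternatives were DESeq2 1.42.0, limma 3.58.1 on log2(FPKM + 1) and log2(FPKM + 0.1), other scalings and filters, counts divided by 4, 2 groups at a time, a replicate block, and each library left out.

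Members, lists and the naming rule were chosen with earlier results of these data known. The rule named all members, the 5 genes of most similar profile, and up to 4 called genes of each list with the largest changes at a mean of at least 1 FPKM; Ado, Arnt2 and Hif3a, and values of list genes in comparisons where the rule did not name them, were chosen after their values were seen. Promoter sequences are from RefSeq (GRCm38.p6). A list gene that the rule names is not reported here.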

Additional observations from a re-analysis of the deposited data

Results flagged for a closer look

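Egln2 in the Neu group had 1 library apart from the others. Neu replicate 4 read 10.6 FPKM, against 9.23 in the nearest of the other 3, a gap of 0.84 of the whole range, just past the critical value of Dixon's test for 4 samples. It was the 1 value that stood out in 42 such groups (the 8 members and 6 sums or shares in 3 groups), and chance alone marks about 1 in 20 groups. Without that library the log2 fold change of Egln2 in Neu against CTR was -0.531, against -0.482 with it, and the call was kept.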

How the results depend on the processing

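Of 528 recomputed member log2 fold changes (8 members, 3 comparisons, 22 alternatives), 521 kept their direction and their side of the threshold. The other 7 belong to values that were not called. Hif1a in Neu against CTR turned to -0.016 with limma on FPKM at either pseudocount and without a filter (adjusted p = 0.75 to 0.85) and passed with upper-quartile scaling (0.085, adjusted p = 0.045). Egln2 in Neu+NETS against Neu turned to -0.017 with upper-quartile scaling (adjusted p = 0.82) and passed with limma on filtered FPKM (0.121 and 0.132). The cause was not tested. Members called numbered 6 to 7, 8, and 7 to 8 in the 3 comparisons. Replicate numbers are not said to mark a shared culture. The deviations of same-numbered libraries correlated at -0.0546 to 0.0426 (12 pairs), and those of other pairs at -0.0468 to 0.0469 (36 pairs). No pairing was seen, but such correlations over all genes cannot show that no culture or batch was shared. With the number as a replicate block, 6, 8 and 7 members were called. On CPM, which is not scaled to length, Egln1 made up 60.4%, 82.8% and 63.9% of the Egln transcripts in CTR, Neu and Neu+NETS, and Hif1a 91.6% and 92.2% of the alpha subunits in CTR and Neu.

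With limma on filtered log2(FPKM + 1) the median of the genes of the edgeR fit was -0.083, 0.049 and 0.104 in the 3 comparisons, instead of 0.020, 0.000 and -0.049. List counts that moved over 1.5 times included those of the VHL partners (Neu against CTR 1 with DESeq2 or upper-quartile scaling, and Neu+NETS against Neu 2 with the latter). The bHLH-PAS count went to 2 with limma on filtered FPKM in both Neu+NETS comparisons, where the filter left only Bmal1 and Clock to test. The coactivator count went to 5 in Neu with limma on filtered FPKM, where Cited1 was not tested. It went to 3 in Neu+NETS against CTR with limma without a filter.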
